A study of Mus musculus with 9 samples.

Results

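The genes described here are those annotated to the oxidative phosphorylation pathway (ko00190), without the V-ATPase subunits that this pathway also lists. They were chosen by their pathway label alone, with symbols starting with Atp6 and Tcirg1 left out, and number 330 of the 56691 genes in the table. Of the 356 genes that carry the label, 26 were left out as V-ATPase genes by symbol. Pseudogenes of V-ATPase subunits under other symbols were not removed by this rule. The members comprised 13 genes encoded on the mitochondrial chromosome, 90 nuclear subunits and biogenesis factors, 208 annotated pseudogenes and 19 other coding genes. Among the nuclear genes, Cox5b-ps is listed as protein coding although its symbol marks a pseudogene, and Ndufb1 is listed as a lncRNA.

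RNA was sequenced from RAW264.7 cells, a mouse macrophage line that turns towards osteoclasts when given RANKL, the cytokine that drives osteoclast formation. There were 3 groups of 3 libraries, each described as a biological replicate and collected after 3 days of culture. The control cells were untreated, the RANKL group received RANKL, and the RANKL + UD group received RANKL with uridine (UD), a pyrimidine nucleoside. All groups came from the same cell line, and no genotype differed between them. The series was made to find transcriptional changes linked to uridine during osteoclast formation, and here the comparisons ask how the transcripts of the respiratory chain stood in the 3 groups.

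Oxidative phosphorylation couples the transfer of electrons from NADH and succinate to oxygen with the synthesis of ATP. Complexes I, III and IV pump protons across the inner mitochondrial membrane, complex II feeds electrons in without pumping, and complex V, the ATP synthase, uses the gradient. Complex II is encoded entirely in the nucleus, whereas the other complexes join nuclear subunits to subunits made inside the mitochondrion, and osteoclasts are known for their many mitochondria.

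Between 15951800 and 19746862 reads per library were assigned to genes. The 13 mitochondrially encoded members took 3.59% to 3.95% of these counts in control, 4.32% to 4.55% in RANKL and 4.32% to 4.53% in RANKL + UD, and the members on other chromosomes took 0.760% to 0.783%, 1.02% to 1.09% and 1.13% to 1.17%. Levels below are FPKM (reads relative to exon length and to the library's total) divided by the library's TMM factor, which adjusts for the make-up of the library and was 0.959 to 0.963 in RANKL and 1.014 to 1.025 in the other libraries. The 7 osteoclast markers tested were all higher in RANKL than in control (median log2 fold change 7.57) and all lower in RANKL + UD than in RANKL (median -0.86). Of these, Acp5, Mmp9 and Oscar passed the filter given below only through the libraries that received RANKL. Their rises over control, and the median that includes them, are not independent of that filter. Of 5 macrophage markers, 4 were lower and 1 higher in RANKL than in control (median -1.58), and again 4 lower and 1 higher in RANKL + UD than in RANKL (median -0.24). Of 6 markers of other cell types none passed the filter, with Cd3e at 0. In such bulk samples, fewer cells of one kind and less RNA per cell cannot be told apart, and the part of these marker shifts in the values below was not tested.

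Only genes with FPKM values of 1 or more in 3 or more libraries were tested, by edgeR's quasi-likelihood test, which left 11995 genes and 136 of the 330 members, and 132 members were at 0 in every library. All 13 mitochondrially encoded members were tested, as were 84 of 90 nuclear genes, 32 of 208 pseudogenes and 7 of 19 other coding genes. The untested nuclear genes were Ndufa4l2, Ndufb11b, Cox6b2, Cox7b2, Cox8b and Cox8c.

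Several mitochondrial genes have near-identical copies in the nuclear genome, and these sequences are shown because they bear on which of the 13 genes can be read. Bases that differ between a gene and its copy are in capitals. The start of mt-Nd3, a complex I subunit, differed from its copy Gm28438 at 1 base of 60, the start of mt-Co2, a complex IV subunit, matched Gm28661 throughout, and positions 1054 to 1113 of mt-Co1, counted from the start of the gene, held 6 differences from Gm29216. The sequences are from the GENCODE vM21 transcripts (GRCm38).
mt-Nd3: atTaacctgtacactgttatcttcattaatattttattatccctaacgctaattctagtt
Gm28438: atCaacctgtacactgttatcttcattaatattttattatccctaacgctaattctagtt
mt-Co2: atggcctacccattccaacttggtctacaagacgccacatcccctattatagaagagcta
Gm28661: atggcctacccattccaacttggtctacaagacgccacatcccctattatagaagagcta
mt-Co1: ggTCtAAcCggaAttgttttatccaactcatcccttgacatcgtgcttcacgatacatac
Gm29216: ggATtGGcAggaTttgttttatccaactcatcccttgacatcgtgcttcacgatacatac
Across the aligned length, 344 of 345 bases were shared by mt-Nd3 and its copy, 681 of 681 by mt-Co2, 678 of 678 by mt-Atp6 and Gm10925, 783 of 783 by mt-Co3 and Gm28437, and 294 of 294 by mt-Nd4l and Gm10222. For mt-Nd4 and Gm28439 it was 876 of 876, with 63.57% of the gene aligned. For mt-Co1 and Gm29216 it was 486 of 492, with 31.84% of the gene aligned.

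To put this on the scale of a read, each transcript was cut into all windows of 150 bases, and the windows found exactly in the transcript of another gene were counted. This share was 96.98% for mt-Nd3, 97.97% for mt-Nd4l, 99.44% each for mt-Co2 and mt-Atp6 and 99.84% for mt-Co3. It was 59.15% for mt-Nd4 and 23.64% for mt-Co1, and 0 for mt-Nd1, mt-Nd2, mt-Nd5, mt-Nd6, mt-Cytb and mt-Atp8. Only transcripts were searched, so a share of 0 says nothing about copies that lie outside annotated transcripts. Gm28661 and Gm10925, the copies of mt-Co2 and mt-Atp6, lie 234 bases apart on the same strand. On the mitochondrial chromosome mt-Atp8 comes between mt-Co2 and mt-Atp6, and the stretch between the copies was not searched. The 5 genes with nearly all windows shared, together with mt-Atp8, which is encoded beside mt-Atp6, had levels between 1.33 and 118.5, while the other 7 ranged from 827 to 14130. How reads that match several places were counted is not given in the sources used here, so the 6 low genes are reported as uncertain. Of the 84 tested nuclear members, 63 shared no window with another gene and none shared 50% or more.

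**Figure D1:**
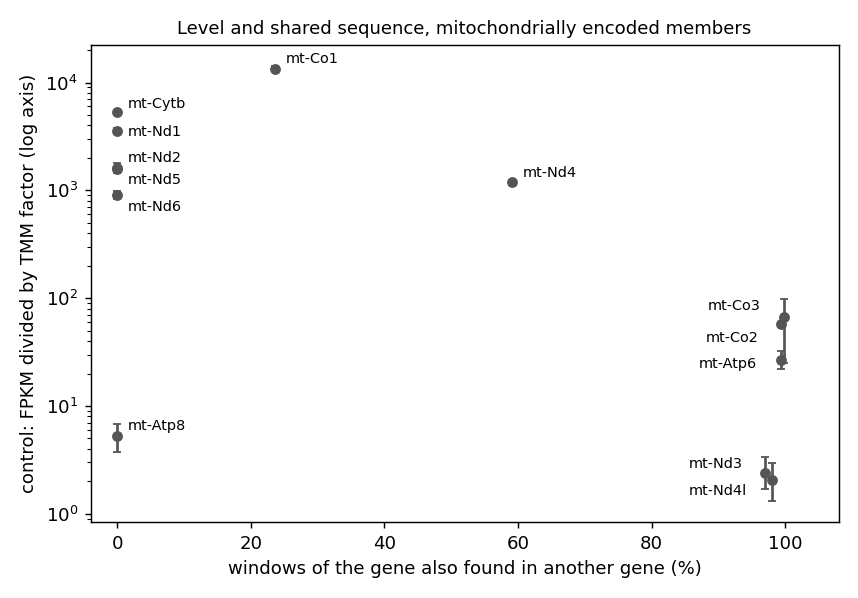
Level of each mitochondrially encoded member in control (mean of 3 libraries, bars from the lowest to the highest library, log axis, FPKM divided by TMM factor) against the percentage of its 150-base windows found in another gene. The 5 genes at 96.98% or more lie below 100, as does mt-Atp8 at 0%, and mt-Co1 is the highest.

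With RANKL, 5 of the 7 complex I subunits made in mitochondria rose, cytochrome b rose as well, and mt-Co1 did not follow. In all, 7 of the 13 mitochondrially encoded members were higher in RANKL than in control (53.8%, against 27.3% of all tested genes higher), and the other 6 were not called. The 7 were mt-Nd1, mt-Nd2, mt-Nd4, mt-Nd5, mt-Nd6, mt-Cytb and mt-Co2, and the median over all 13 was 0.66 on the log2 scale, beside -0.03 over all genes.

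The ND subunits form the membrane arm of complex I that moves protons. mt-Nd2 (MT:3914-4951, plus strand) stood at 1598, 1470 and 1636 in control, 3080, 2951 and 3245 in RANKL, and 3424, 2986 and 2937 in RANKL + UD. The control libraries lay below all others, and the treated groups overlapped. The log2 fold change was 0.98 (SE 0.06, adjusted p = 4.92e-12) with RANKL and 0.01 (adjusted p = 0.904) with uridine on top of RANKL. mt-Nd5 stood at 1627, 1454 and 1794 in control, 2863, 2782 and 2980 in RANKL, and 3247, 3022 and 3081 in RANKL + UD, a change of 0.82 (adjusted p = 1.06e-10) and then 0.12 (adjusted p = 0.122), the latter passing without Ctrl replicate 3 (0.12). mt-Nd6, the member encoded on the opposite strand of the mitochondrial chromosome, rose by 0.86 with RANKL, from 827 to 994 in control to 1583 to 1705 in RANKL. Whether counting used the strand is not given, and the part of reads from the other strand in mt-Nd6 was not tested. mt-Nd1 rose by 0.53 and mt-Nd4 by 0.68, and neither passed the test between RANKL + UD and RANKL (-0.04 and 0.01). The low complex I genes mt-Nd3 and mt-Nd4l, at 1.33 to 5.05, had values of 0.70 and 0.71 that missed the threshold (adjusted p = 0.132 and 0.189).

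mt-Cytb, which carries the hemes of complex III that pass electrons across the membrane, stood at 5430, 5104 and 5420 in control, 8485, 8129 and 8666 in RANKL, and 8203, 7679 and 7696 in RANKL + UD. Its change was 0.66 (SE 0.04, adjusted p = 4.09e-11) with RANKL. Between RANKL + UD and RANKL it was -0.10 (adjusted p = 0.0819), with overlapping libraries, and it passed as lower under several alternatives, among them DESeq2 (-0.11) and the fits without UDRANKL replicate 1 (-0.13) or Ctrl replicate 3 (-0.10).

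mt-Co1 (MT:5328-6872, plus strand) encodes the catalytic subunit of complex IV, where oxygen is reduced. Its level was 13430, 12700 and 14130 in control, 12630, 12440 and 12770 in RANKL, and 10830, 10760 and 10910 in RANKL + UD. The 3 RANKL + UD libraries lay below all others, while control and RANKL libraries overlapped. Its log2 fold change was -0.09 (SE 0.04, adjusted p = 0.0777) with RANKL, -0.22 (SE 0.04, adjusted p = 0.000342) between RANKL + UD and RANKL, and -0.31 (adjusted p = 2.82e-06) between RANKL + UD and control. The first of these passed as lower without Ctrl replicate 2 (-0.13), with total counts (-0.18) and in limma (-0.21 on TPM), and the second was not called in limma (-0.12 to -0.13).

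Read within a library, and so free of scaling between libraries, mt-Co1 made up 47.7% to 48.9% of the TPM of the 13 members in control, 34.5% to 35.7% in RANKL and 30.8% to 32.9% in RANKL + UD. The log2 ratio of mt-Co1 to the other 12 was -0.10 ± 0.03 (SD, n = 3) in control, -0.88 ± 0.04 in RANKL and -1.08 ± 0.07 in RANKL + UD. The groups did not overlap, and each difference (-0.79, -0.20 and -0.98) had p = 0.1 in a two-sided exact permutation test, the smallest that 3 against 3 libraries can give. Such a ratio shows unequal change between mt-Co1 and the other genes and does not tell which of them moved. The other 12 include the low genes reported as uncertain, so share and ratio set mt-Co1 mainly against mt-Cytb and the higher ND genes. The percentages are shares of the counted reads and not of all mitochondrial RNA.

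The other members of this chromosome were low and variable. mt-Co2, which holds the copper center that takes electrons from cytochrome c, stood at 60.1, 57.7 and 56.6 in control, 74.8, 80.1 and 118.5 in RANKL, and 72.1, 65.1 and 67.8 in RANKL + UD. RANKL replicate 3 was far above the rest. The rise of 0.65 with RANKL (adjusted p = 7.02e-05) was followed by -0.41 between RANKL + UD and RANKL (adjusted p = 0.0072), a call that was lost without RANKL replicate 3 (-0.18) and in limma (-0.28 to -0.30). mt-Atp6, part of the proton channel of the ATP synthase, stood at 22.0, 25.2 and 32.1 in control, 27.8, 22.3 and 26.8 in RANKL, and 45.2, 63.6 and 23.6 in RANKL + UD. Its value of 0.78 between RANKL + UD and RANKL (adjusted p = 0.0071) rested on overlapping libraries, was lost without UDRANKL replicate 2 (0.43) and did not pass in DESeq2 (0.77). The same held against control, where 0.74 became 0.39 without that library. mt-Co3, which ranged from 25.2 to 98.4, passed in none of the 3 comparisons, but its value of -0.64 against control in RANKL + UD passed as lower without Ctrl replicate 2 (-1.04) or UDRANKL replicate 3 (-1.12). mt-Atp8 passed in none.

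**Figure D2:**
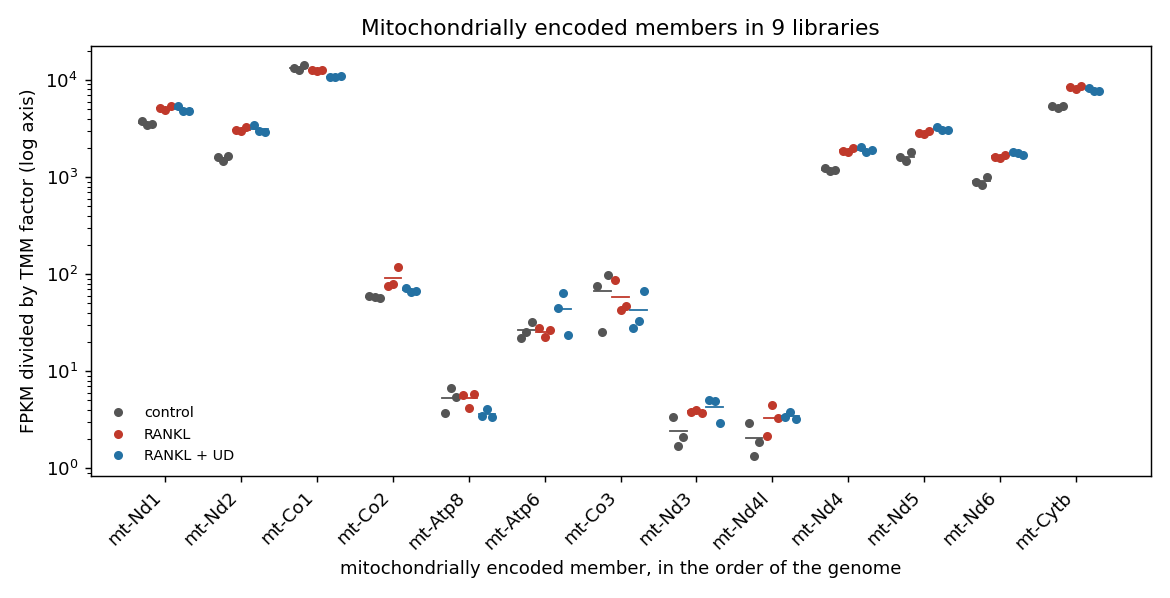
The 13 mitochondrially encoded members in the order of the genome, with 1 point per library (FPKM divided by TMM factor, log axis) and a line at each group mean. mt-Nd1, mt-Nd2, mt-Cytb, mt-Nd4, mt-Nd5 and mt-Nd6 are higher in both RANKL groups than in control, mt-Co1 is lowest in RANKL + UD, and 6 genes lie at or below 118.5.

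Nuclear genes of all 5 complexes were higher in RANKL than in control. Of the 84 tested, 65 were higher (77.4%, against 27.3% of all tested genes), 1 was lower (Cox4i2, or 1.19%, against 30.2%) and 18 were not called. Cox4i2 passed the filter only through the control libraries. The rises were modest, from 0.19 to 1.44 on the log2 scale (1.14-fold to 2.71-fold), with a median of 0.43 over the 84 genes. Only Ndufs8, Cox17 and Cox4i2 moved by more than 1. By complex, 26 of 38 genes were higher in complex I (median 0.33), 4 of 4 in complex II (0.50), 9 of 9 in complex III (0.55), 10 of 14 in complex IV (0.54), 3 of 4 complex IV biogenesis factors (0.42) and 13 of 15 in complex V (0.43). Over the alternative fits at the same adjusted p threshold, between 46 and 67 of the nuclear genes were called higher, and 16 of the 65 also passed a 1.5-fold change.

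**Figure D3:**
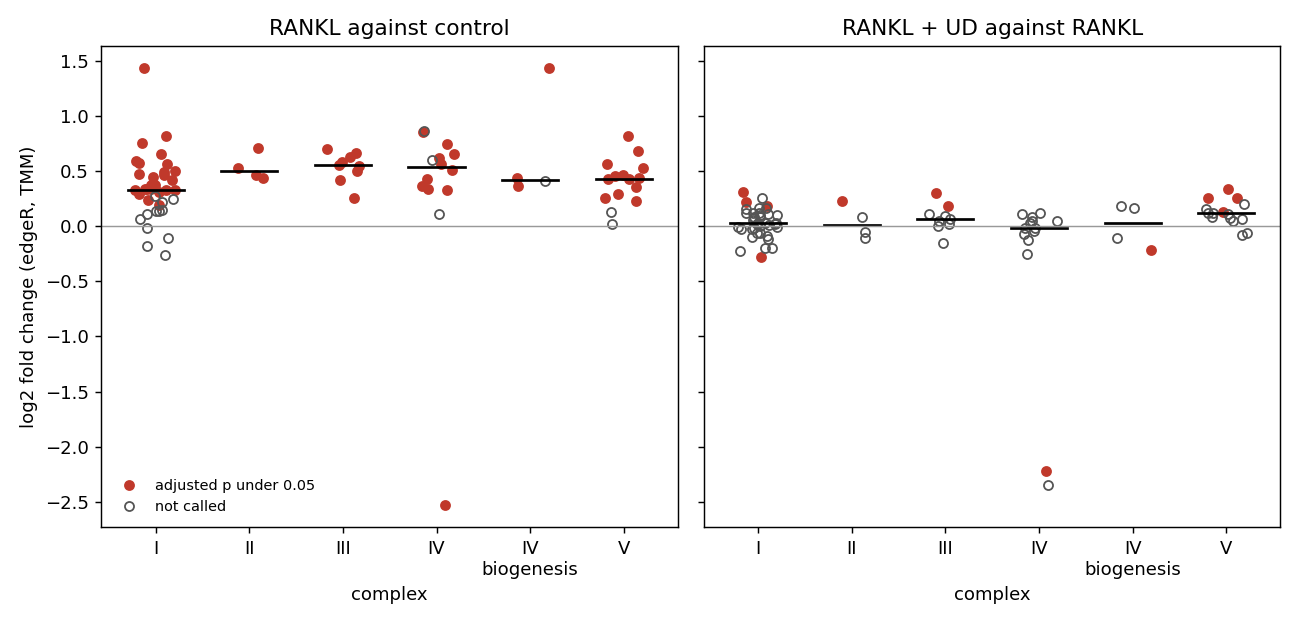
Log2 fold changes of the 84 tested nuclear genes by complex (y axis, edgeR), RANKL against control on the left and RANKL + UD against RANKL on the right, with filled points for an adjusted p under 0.05 and a line at the median. Medians of 0.33 to 0.55 on the left stand beside -0.02 to 0.12 on the right, and the lowest open point on the right is Cox4i2, whose RANKL + UD counts are at or near 0.

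Uridine given with RANKL moved few of these genes further, and most stayed above control. Between RANKL + UD and RANKL, 10 of the 84 were higher (11.9%, against 18.6% of all tested genes) and 3 were lower (3.57%, against 20.2%). The median was 0.05, and it ran from -0.002 to 0.15 over the alternatives. Of the 71 genes not called, 68 had a 95% interval within 0.5 of 0 on the log2 scale. The 10 rises were 0.13 to 0.33, in Atp5a1, Atp5g1, Atp5g3, Atp5j2, Uqcrb, Uqcr11, Ndufa10, Ndufb7, Ndufb10 and Sdhd, and the 3 lower genes were Ndufs8, Cox15 and Cox6a2. The number of rises depended on the scaling and on single libraries, since 26 were called with total counts, a scaling that moved the median of all genes to 0.09 from 0.005, and 3 without UDRANKL replicate 1. With total counts, Sdha, Ndufs1, Ndufa4, Uqcrc2, Cyc1, Cox5a and Atp5b were among the genes called higher, with values of 0.14 to 0.21. Against control, 70 of the 84 were higher in RANKL + UD (83.3%, against 26.7% of all tested genes) and 2 were lower (2.38%, against 27.3%), with a median of 0.47. These comparisons share libraries, so they are given side by side and not as separate evidence.

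The 4 subunits of complex II, which is also the succinate dehydrogenase of the citric acid cycle, all rose with RANKL. Sdha, its flavoprotein, stood at 55.1, 57.7 and 54.7 in control, 88.4, 90.5 and 94.5 in RANKL, and 97.8, 95.7 and 96.3 in RANKL + UD, with changes of 0.71 (SE 0.05, adjusted p = 2.31e-11) and then 0.08 (adjusted p = 0.157). Sdhd, a membrane anchor, stood at 113, 126 and 115, then 153, 164 and 173, then 180, 197 and 196. It was the complex II gene that rose again with uridine, by 0.23 (adjusted p = 0.00319) after 0.47, and its 3 groups did not overlap. The iron-sulfur subunit Sdhb and the anchor Sdhc rose by 0.53 and 0.44 with RANKL and had values of -0.10 and -0.05 between RANKL + UD and RANKL, neither called.

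In complex I, the core subunits that carry electrons from NADH to ubiquinone rose with RANKL, apart from Ndufs7. Ndufs8, one of the iron-sulfur subunits, changed most, from 44.5, 49.1 and 45.9 in control to 120, 119 and 140 in RANKL, and stood at 100.3, 104 and 107 in RANKL + UD. The groups did not overlap. The changes were 1.44 (SE 0.07, adjusted p = 5.24e-14) with RANKL and -0.28 (SE 0.06, adjusted p = 0.00114) between RANKL + UD and RANKL, the latter not called in limma (-0.17 to -0.19). Its neighbour Aldh3b1, 717 bases away on the same strand, rose by 1.05 with RANKL and changed by -0.59 between RANKL + UD and RANKL, and the part of reads from that gene was not tested. Ndufs1, the largest core subunit, rose from 16.6 to 17.4 in control to 24.9 to 25.5 in RANKL (0.57), and the NADH-binding subunit Ndufv1 rose by 0.66. Ndufs7, another iron-sulfur subunit, stood at 8.74, 9.32 and 10.3 in control and 9.49, 12.2 and 11.9 in RANKL, a value of 0.24 that was not called (adjusted p = 0.0686) but passed without RANKL replicate 1 (0.35), without Ctrl replicate 3 (0.31) and with TMM factors set without chromosome MT (0.27).

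The accessory subunits of complex I were less uniform. Ndufa4, listed here by its symbol but known as a subunit of complex IV, rose by 0.76, from 28.8 to 35.8 in control to 52.3 to 56.1 in RANKL. Ndufb10, a subunit of the membrane arm, stood at 40.0, 39.5 and 35.6, then 51.0, 47.1 and 46.2, then 62.4, 55.4 and 61.0, with changes of 0.33 and then 0.31 (adjusted p = 0.00104) and no overlap between groups. Of the 38 complex I genes, 12 were not called with RANKL, and the lowest of their values was -0.26.

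All 9 nuclear genes of complex III rose with RANKL. Uqcrc2, a core protein of the matrix side, stood at 66.3, 61.4 and 68.0 in control, 105, 106 and 107 in RANKL, and 111, 111 and 111 in RANKL + UD, with changes of 0.70 (SE 0.05, adjusted p = 5.06e-11) and then 0.06 (adjusted p = 0.304). Its partner Uqcrc1 rose by 0.55, the Rieske iron-sulfur protein Uqcrfs1 by 0.51 and cytochrome c1 (Cyc1) by 0.63, and none of the 3 passed between RANKL + UD and RANKL. The small subunit Uqcr11 stood at 29.8, 31.1 and 25.0, then 34.8, 41.2 and 39.3, then 51.3, 43.0 and 47.6. Its value of 0.30 between RANKL + UD and RANKL (adjusted p = 0.0209) missed the threshold without RANKL replicate 1 (0.24), without UDRANKL replicate 1 (0.24) and without UDRANKL replicate 3 (0.30).

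Complex IV held the genes that went against the rest. Several of its subunits exist as isoforms of which one is used in most tissues and another in muscle, lung or testis. The common isoforms Cox4i1 and Cox7a2 rose with RANKL by 0.37 and 0.85, and the core subunit Cox5a by 0.34. Cox7a2 stood at 83.1, 73.4 and 63.3 in control, 135, 121 and 142 in RANKL, and 152, 130 and 129 in RANKL + UD. Cox6a1 was not called (0.11, adjusted p = 0.405) but passed without Ctrl replicate 3 (0.25).

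Cox4i2, the isoform known from lung and from low oxygen, was low in all libraries. It had 19, 23 and 26 reads in control, 4, 2 and 6 in RANKL, and 2, 0 and 0 in RANKL + UD. The control libraries did not overlap with the others, and the fall with RANKL was -2.53 (SE 0.57, adjusted p = 0.000717). Cox4i2 passed the filter only through the control libraries, where it was highest. Its lack of overlap, its test and the ratios to control below are therefore not independent of that filter. From the 68 reads of control and the 2 of RANKL + UD, scaled by library size, the control level was 34.4 times that of RANKL + UD (exact 95% interval 9.17 to 290, counting error only). The 12 reads of RANKL gave a ratio of 5.82 to RANKL + UD (1.30 to 53.6), a difference that missed the threshold in edgeR (adjusted p = 0.0937) and passed without UDRANKL replicate 1.

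Cox6a2, the heart and muscle isoform, had 33, 33 and 31 reads in control, 31, 58 and 65 in RANKL, and 18, 6 and 8 in RANKL + UD. The RANKL + UD libraries lay below all others, while control and RANKL overlapped because RANKL replicate 1 was at the control level. The value with RANKL was 0.60 (SE 0.33, adjusted p = 0.125), which passed without RANKL replicate 1 (0.87), and between RANKL + UD and RANKL it fell by 2.22 on the log2 scale (SE 0.39, adjusted p = 0.000107). Against control the value was -1.62 (adjusted p = 0.00205). The muscle isoform Cox7a1, at 1.03 to 3.35, was not called in the 3 comparisons (0.87 with RANKL, which passed without RANKL replicate 1 at 1.15). Cox7a2l, known for joining complexes III and IV, rose by 0.33 with RANKL, and its value of -0.12 between RANKL + UD and RANKL missed the threshold (adjusted p = 0.0542) but passed under several alternatives, among them DESeq2 (-0.13) and the fits without RANKL replicate 2 (-0.15) or Ctrl replicate 3 (-0.12).

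The biogenesis factors of complex IV supply its copper and heme. Cox17, the copper chaperone, stood at 5.65, 5.26 and 4.44 in control, 14.7, 12.3 and 14.6 in RANKL, and 15.0, 11.5 and 12.1 in RANKL + UD. It changed by 1.44 (SE 0.10, adjusted p = 7.65e-11) with RANKL and by -0.11 (adjusted p = 0.399) between RANKL + UD and RANKL, where the libraries overlapped. Cox15, needed for heme A, rose by 0.44 with RANKL and changed by -0.22 between RANKL + UD and RANKL (adjusted p = 0.00455), a call lost with total counts (-0.13) and in limma (-0.11 to -0.13). Cox10 rose by 0.36. Cox11, whose gene overlaps Tom1l1 on the opposite strand, was not called with RANKL (0.41, adjusted p = 0.0819). In all, 20 nuclear members overlap another expressed gene, 19 of them on the opposite strand only. The libraries were made strand-specific, but whether the counting used the strand is not given in the sources used here.

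Of the 15 ATP synthase genes, 13 rose with RANKL, Atp5j and Atp5h were not called, and the group had the highest median of the nuclear groups between RANKL + UD and RANKL (0.12). The catalytic subunit gene Atp5b stood at 198, 202 and 198 in control, 340, 348 and 368 in RANKL, and 354, 366 and 373 in RANKL + UD. Its change of 0.82 (SE 0.04, adjusted p = 1.33e-12) with RANKL was followed by 0.05 (adjusted p = 0.403), which was not called, though total counts (0.14) and limma on TPM (0.15), fits that moved the median of all genes to 0.09 and 0.0998, called it higher. Atp5a1, the other large subunit of the head, rose by 0.43 and then by 0.13 (adjusted p = 0.0293), a call that did not pass in 5 of the fits that left out 1 library: RANKL replicate 1 (0.10), RANKL replicate 2 (0.11) and UDRANKL replicates 1 (0.14), 2 (0.13) and 3 (0.12).

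Atp5g1, Atp5g2 and Atp5g3 encode the same mature subunit, the one that forms the rotating ring. Atp5g3 was the highest of them, at 46.6, 45.6 and 39.8 in control, 62.7, 62.9 and 70.5 in RANKL, and 87.4, 72.8 and 74.0 in RANKL + UD. It rose by 0.57 and then by 0.26 (adjusted p = 0.00654), the second of which was lost without UDRANKL replicate 1 (0.17). Atp5g1, at 4.87 to 8.71, rose by 0.25 with RANKL (adjusted p = 0.0283) and by 0.33 between RANKL + UD and RANKL (adjusted p = 0.0068). Its first rise missed the threshold without Ctrl replicate 1 (0.25), Ctrl replicate 2 (0.19), RANKL replicate 2 (0.18) or RANKL replicate 3 (0.25), and its second without UDRANKL replicate 1 (0.26). Atp5g2 rose by 0.29 with RANKL and was not called between RANKL + UD and RANKL (-0.08).

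**Figure D4:**
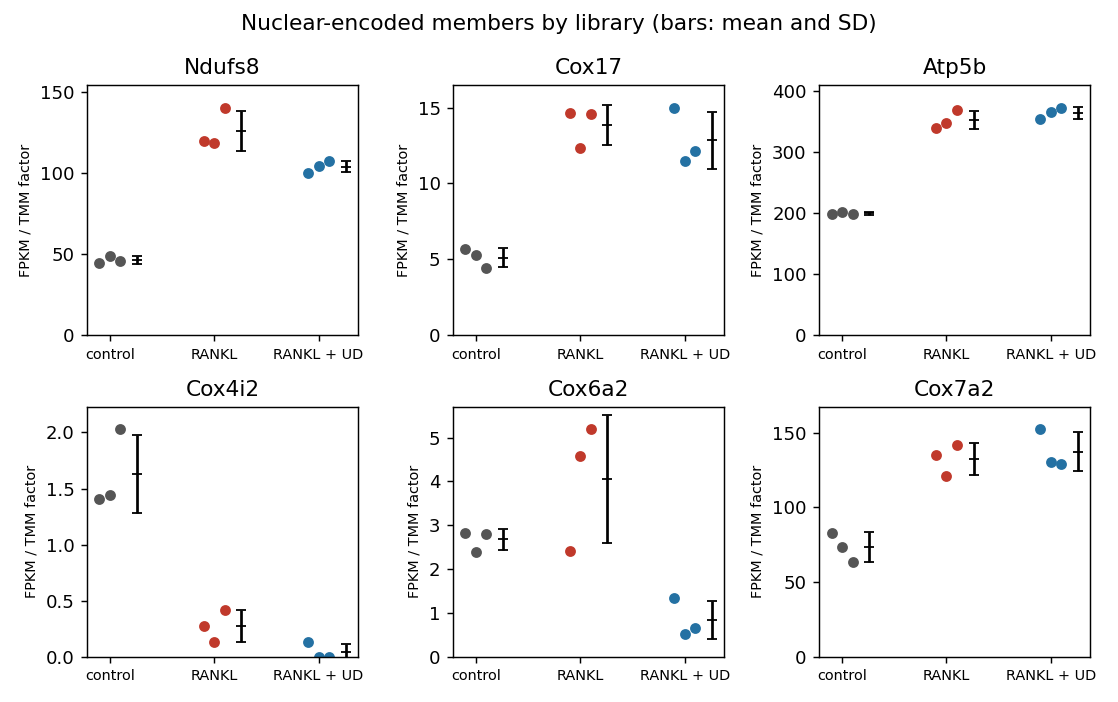
Levels of 6 nuclear members by library (y axis, FPKM divided by TMM factor, from 0), with 1 point per library and bars for the mean and SD (n = 3). Ndufs8, Cox17, Atp5b and Cox7a2 are higher in both RANKL groups than in control, Cox4i2 is lower in both, and Cox6a2 is lowest in RANKL + UD.

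To see how much of each complex's RNA these genes make up, the TPM of its members was summed per library. Complex I rose from 33918 ± 1301 (SD, n = 3) in control to 50598 ± 1191 in RANKL and 55198 ± 2181 in RANKL + UD. Complex II rose from 822 ± 33.3 to 1092 ± 36.3 and 1268 ± 40.4, and complex V from 3430 ± 48.5 to 4485 ± 71.5 and 5201 ± 84.4. Complex III was 20254 ± 478 in control, 29235 ± 594 in RANKL and 29631 ± 585 in RANKL + UD, and the RANKL and RANKL + UD libraries overlapped (exact permutation p = 0.6). Most of the sums of complexes I, III and IV was mitochondrially encoded. The nuclear part of complex I was 3393 ± 163, 4258 ± 138 and 4590 ± 195, and that of complex III 1971 ± 145, 2632 ± 75.9 and 2993 ± 71.4. Without the TMM factor, neither part overlapped between RANKL + UD and RANKL (exact permutation p = 0.1 each). The nuclear parts were not divided by that factor. In edgeR, which uses it, the median log2 fold change of their tested genes was 0.03 in complex I and 0.06 in complex III. Complex IV was 49549 ± 2376, 44174 ± 404 and 41290 ± 547, while its nuclear part alone was 2972 ± 204, 3887 ± 129 and 4178 ± 191. The rest of its sum was nearly all mt-Co1, since mt-Co2 and mt-Co3 are among the low genes reported as uncertain. The complex IV sum thus mainly follows that gene and not the complex as a whole. In 14 of the 15 comparisons of whole complexes, all but that of complex III between RANKL + UD and RANKL, the libraries did not overlap. Each of the 14 had a two-sided exact permutation p of 0.1 (0.107 adjusted over the 15), the smallest this design allows. These sums are without the TMM factor. Divided by it, an alternative chosen after seeing the data, complex IV overlapped between RANKL and control (45982 ± 493 and 48548 ± 2402, exact permutation p = 0.2) and complex I between RANKL + UD and RANKL (54124 ± 2413 and 52669 ± 1315, exact permutation p = 0.6), so that 12 of the 15 comparisons had no overlap. Complex IV in RANKL + UD stayed below both other groups (40479 ± 370), and complex III was then lower in RANKL + UD than in RANKL (29052 ± 716 and 30431 ± 678), still with overlap (exact permutation p = 0.2).

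**Figure D5:**
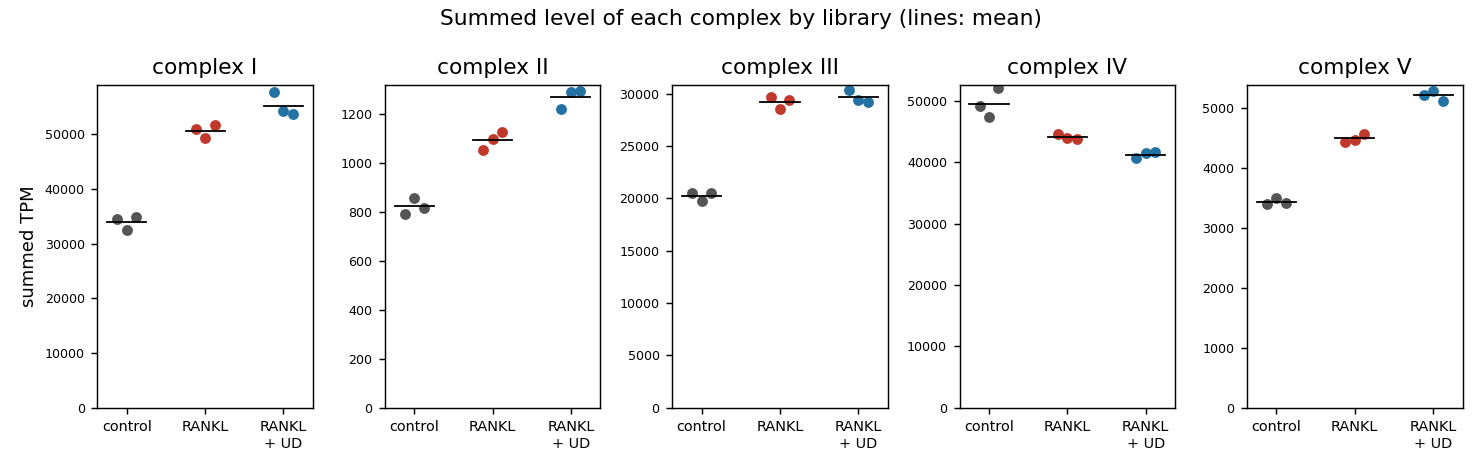
Summed TPM of the members of each complex by library (y axes from 0, 1 point per library, line at the mean of 3). Complexes I, II, III and V are higher in both RANKL groups than in control, and complex IV is at 49549, 44174 and 41290 (sums without the TMM factor, with which its control and RANKL libraries overlap). Most of the complex IV sum is mt-Co1.

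The log2 ratio of the mitochondrially encoded members to those on other chromosomes was 2.70 ± 0.09 (SD, n = 3) in control, 2.60 ± 0.04 in RANKL and 2.45 ± 0.01 in RANKL + UD. The mitochondrially encoded side includes the low genes reported as uncertain. Control and RANKL libraries overlapped (difference -0.10, exact permutation p = 0.2). The RANKL + UD libraries lay below the RANKL libraries by 0.15 and below control by 0.25 (differences of -0.15 and -0.25, exact permutation p = 0.1 each, 0.15 adjusted over the 3 comparisons). With mt-Co1 left out, the difference between RANKL and control was 0.23 and that between RANKL + UD and control 0.15, so 2 of the 3 signs turned on that gene, while RANKL + UD against RANKL remained negative at -0.08.

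Promoters are shown for 2 of the 3 genes whose window held the letters of more than 1 of the factors known to act on respiratory genes, the third being Cox10, with the ETS and YY1 letters. RefSeq promoter windows (GRCm38.p6, 250 bases before to 50 after the start) matched 72 of the 90 nuclear genes, giving 77 windows. These letters were searched on both strands: GCGCATGC for NRF1, CCGGAAGT for ETS factors such as GABP, CAAGGTCA for ERR and AAGATGGC for YY1, and the capitals mark matches on either strand. The Uqcr11 window lies at chr10:80406772-80407071 (minus strand) and holds the ETS and NRF1 letters, and the Atp5l window, of an ATP synthase subunit that rose by 0.46 with RANKL, lies at chr9:44920693-44920992 (minus strand) and holds the NRF1 and ERR letters.
Uqcr11: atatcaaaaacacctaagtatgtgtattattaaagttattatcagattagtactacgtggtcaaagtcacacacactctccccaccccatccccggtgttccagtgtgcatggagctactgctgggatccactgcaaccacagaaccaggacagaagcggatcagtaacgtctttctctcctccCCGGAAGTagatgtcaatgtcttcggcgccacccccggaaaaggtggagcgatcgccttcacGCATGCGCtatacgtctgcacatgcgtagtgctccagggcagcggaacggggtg
Atp5l: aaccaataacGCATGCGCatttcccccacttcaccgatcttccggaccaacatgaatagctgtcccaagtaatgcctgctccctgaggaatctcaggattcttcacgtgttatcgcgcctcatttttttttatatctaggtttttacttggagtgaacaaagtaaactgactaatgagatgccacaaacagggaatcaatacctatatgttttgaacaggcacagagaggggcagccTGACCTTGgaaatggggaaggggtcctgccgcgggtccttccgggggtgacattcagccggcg
The NRF1 letters were in 10 of the 77 windows (13.0%, against 2.71% of 32851 windows of all genes), the ETS letters in 7 (9.09% against 3.89%), the ERR letters in 4 (5.19% against 1.56%) and the YY1 letters in 11 (14.3% against 2.75%). The member windows held a median of 19 CpG against 7 in all windows, and the part of base composition in these shares was not tested. A match is a run of letters and was not tested as a binding site.

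The other members were pseudogenes and coding genes without a place in a complex. Of the 32 tested pseudogenes, 6 were higher and 2 lower in RANKL than in control (18.8% and 6.25%, against 27.3% and 30.2% of all tested genes), and 2 were called in RANKL + UD against RANKL, both higher (6.25%, against 18.6%). Among the 7 other coding genes tested, Ppa1, the cytosolic enzyme that splits pyrophosphate, stood at 18.02, 17.2 and 17.8 in control, 20.5, 21.2 and 21.8 in RANKL, and 28.6, 27.3 and 26.8 in RANKL + UD. It rose by 0.26 and then by 0.38 (adjusted p = 2.38e-05). Its mitochondrial relative Ppa2 rose by 0.26 with RANKL, a call lost without Ctrl replicate 2 (0.25) or RANKL replicate 3 (0.16), with 0.03 thereafter. Tom1l1 rose by 0.78 and changed by -0.38 between RANKL + UD and RANKL, and Tcf20 was lower in that comparison (-0.19), a call lost without RANKL replicate 1 (-0.13) or UDRANKL replicate 3 (-0.14). Lhpp, Mrpl47 and Vmac were not called.

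Genes that serve the chain without belonging to it were read from lists of assembly factors, carriers and regulators. Their counts stand beside 27.3% higher and 30.2% lower of all tested genes with RANKL, and 18.6% and 20.2% in RANKL + UD against RANKL. Of 15 complex I assembly factors, 4 were higher and 2 lower with RANKL (median 0.02), and 6 were higher and 1 lower in RANKL + UD than in RANKL (median 0.22). The complex II list had 1 of 4 higher in each of these comparisons, the complex III list 3 of 6 higher with RANKL and a median of 0.12 in RANKL + UD against RANKL, and the complex IV list 5 of 18 higher and then 3 of 18. The complex V list had 1 of 4 higher and 1 of 4 lower in each of these comparisons. Tmem70, an assembly factor of the ATP synthase, was higher by 0.36 (adjusted p = 0.000328) with RANKL and by 0.20 (adjusted p = 0.0331) in RANKL + UD against RANKL. Atpif1, the inhibitor of the ATP synthase, was lower with RANKL (-0.19, adjusted p = 0.00844) and lower again with uridine (-0.17, adjusted p = 0.0278).

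Among 16 mobile carriers and ubiquinone synthesis genes, 8 were higher and 1 lower with RANKL, and 2 were higher and 2 lower in RANKL + UD than in RANKL. Cycs, cytochrome c itself, rose by 0.46 (adjusted p = 2.45e-05) and then by 0.44 (adjusted p = 8.37e-05). Coq8a, a kinase-like protein of ubiquinone synthesis, rose by 4.94 (SE 0.15) and then changed by -0.62 (adjusted p = 5.9e-05). It passed the filter only through the libraries given RANKL, since its FPKM in control was 0.20 to 0.50. Its rise with RANKL is therefore not independent of that filter. Of 4 other dehydrogenases that pass electrons to ubiquinone, 2 were called higher with RANKL (Gpd2 and Etfdh) and 1 lower. The lower gene was Sqor, which oxidizes sulfide, at -2.21. With uridine on top of RANKL, 1 of the 4 was called higher and 0 lower. Dhodh, the enzyme of pyrimidine synthesis that reduces ubiquinone, had -0.29 with RANKL (adjusted p = 0.0562) and was higher in RANKL + UD than in RANKL by 0.70 (adjusted p = 0.000117). The ADP/ATP carriers Slc25a4 and Slc25a5 rose by 0.78 and 0.64 with RANKL. Of 25 genes for mitochondrial transcription, RNA processing and replication, 9 were higher and 3 lower with RANKL, and 6 higher and 2 lower in RANKL + UD than in RANKL. In this list Tfam, the main packaging and transcription factor of mitochondrial DNA, was not called in either (-0.07 and 0.04), Hsd17b10, a subunit of the mitochondrial RNase P, rose by 1.31 with RANKL, and Polg2, an accessory subunit of the DNA polymerase, changed by -0.98. The genes named from these lists were chosen after their values were seen.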

How the data were processed

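RAW264.7 libraries were poly(A)-selected and sequenced as 150 bp pairs per the labels. The authors deposited read counts per gene, without normalization, and FPKM, which recomputed from counts and exonic lengths within 0.01 for 100% of values. Columns named Model were taken as the RANKL group, the study's name for it. The aligner and counting tool are not given in the sources used here. Per the labels the build is mm10, but 10 of 317 nuclear-located members had identical GRCm38 coordinates, so nuclear coordinates of the deposited table are not printed.

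Counts of all 9 libraries were fitted with edgeR 4.0.16 (R 4.3.3, TMM, quasi-likelihood test, a mean per group), and p-values were Benjamini-Hochberg adjusted over 11995 genes and called under 0.05. TPM was computed from counts and exonic lengths. limma 3.58.1 on log2(FPKM + 1), log2(FPKM + 0.1) or log2(TPM + 1), DESeq2 1.42.0, a minimum FPKM of 5, no filter, other scalings, a fold threshold of 1.5, a replicate block and leaving out each library were alternatives. Leaving pseudogenes out of the nuclear side of the ratio, and dividing summed TPM by the TMM factor, were alternatives chosen after seeing the data. Scripts were tested on simulated data. Replicates of a group differed by more than counting noise (chi-square per degree of freedom 2.98 to 9.54), so none was counted as deposited more than once.

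The members and lists were chosen with earlier results of these data known. Named genes were the mitochondrially encoded members, complex II, core subunits, tissue isoforms, the largest rise and fall per complex among called genes, and called genes outside the complexes. Permutation tests over libraries were exact and two-sided. Some genes that this rule names are not reported here. No protein sequence was used here, and no genome sequence apart from the promoter windows.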

Additional observations from a re-analysis of the deposited data

How the results depend on the processing

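With 3 libraries a group, exact tests could not go below 0.1, 5 of the 6 low mitochondrial genes share nearly all windows with a nuclear copy, and counting strand is not known.

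With RANKL against control, 81 members were higher (28 past a 1.5-fold change) and 3 lower (1 in DESeq2, 6 with total counts, 5 in each limma fit). Between RANKL + UD and RANKL, 14 were higher (35 with total counts, 22 in limma on log2(FPKM + 0.1), 28 on TPM, 24 on log2(FPKM + 1), 2 past 1.5-fold) and 7 lower (4 in limma on log2(FPKM + 0.1), 3 on TPM, 2 on log2(FPKM + 1), 1 past 1.5-fold). Between RANKL + UD and control, 89 were higher (39 past 1.5-fold) and 5 lower (2 with an FPKM minimum of 5, 3 past 1.5-fold). Of the 136 members tested, 59.6% were higher and 2.21% lower with RANKL, against 27.3% and 30.2% of all tested genes. With uridine on RANKL the shares were 10.3% and 5.15%, against 18.6% and 20.2%. Between RANKL + UD and control they were 65.4% and 3.68%, against 26.7% and 27.3%.
Total counts moved the median log2 fold change of all genes to -0.11 with RANKL and 0.09 with uridine, from -0.03 and 0.005. The ratio of mitochondrially encoded to other members differed by -0.20 and -0.35 from control in sums of counts, and by 0.23, -0.083 and 0.15 without mt-Co1, where the value for each comparison in order was -0.10, -0.15 and -0.25 in the main analysis. Dividing the summed TPM by the TMM factor gave log2 ratios with RANKL of 0.66, 0.50, 0.62, -0.078 and 0.47 for complexes I to V, and with uridine on RANKL of 0.039, 0.13, -0.067, -0.18 and 0.13. All of these moved by more than 1 SD, and none of the ratios between RANKL + UD and control did.

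Leaving out 1 library gave 71 to 82 higher and 1 to 4 lower with RANKL, 7 to 17 and 6 to 11 with uridine on RANKL, and 74 to 90 and 4 to 6 against control, with ratio differences of -0.14 to -0.05, -0.17 to -0.13 and -0.29 to -0.20. The rises with uridine were 7 without UDRANKL replicate 1 and 9 without UDRANKL replicate 2, RANKL replicate 1 or RANKL replicate 2. The falls were 11 without Ctrl replicate 3 or UDRANKL replicate 1, and with RANKL 1 without Ctrl replicate 3 or RANKL replicate 2.

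Same-numbered libraries deviated together only weakly (correlations of -0.02 to 0.10, beside -0.10 to 0.05 between other numbers). The highest value was between Ctrl replicate 1 and UDRANKL replicate 1, and not every library correlated best with its own number. Whether same-numbered libraries were handled together cannot be told from these values. The replicate block gave 84 higher and 2 lower, 16 and 10, and 90 and 5. With the block, Ndufs7 (0.24) passed with RANKL, and mt-Cytb (-0.10) and Cox7a2l (-0.12) with uridine on RANKL. The causes of these shifts were not tested.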

Other observations

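Other transcripts of the mitochondrial chromosome were read beside the members. mt-Rnr2, the large ribosomal RNA, rose by 1.28 (adjusted p = 1.37e-15) with RANKL and by 0.15 (adjusted p = 0.015) with uridine on top of RANKL by edgeR. The small ribosomal RNA mt-Rnr1 rose by 0.43 (adjusted p = 1.5e-06) and then changed by -0.31 (adjusted p = 0.00019). The proline tRNA gene mt-Tp, on the minus strand, was higher by 0.93 and then by 0.56 (adjusted p = 0.000684). These RNAs carry short or no poly(A) tails in part, the libraries were poly(A)-selected, and the part of that selection in the values was not tested.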
